A study of Caenorhabditis elegans with 6 samples.

Results

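Short-chain dehydrogenases and reductases are a large enzyme superfamily that uses NAD(H) or NADP(H) to oxidise alcohols or reduce ketones and aldehydes. Their substrates include steroids, fatty acid derivatives, sugars and foreign compounds, where such reactions belong to phase I of detoxification. In nematodes, members of the superfamily act in the synthesis of the steroid hormone dafachronic acid, in the peroxisomal shortening of pheromone side chains and on lipid droplets of the intestine. The genes described here were those whose symbol starts with dhs- or stdh-, together with F25D1.5, a gene without a 3-letter name that encodes a short-chain dehydrogenase. The dhs and stdh genes were chosen by name, while F25D1.5 was added singly and had been reported by the study from these same samples. Among the 17922 genes matched on the array, 34 members were found, 29 of them dhs genes, 4 of them stdh genes and 1 of them F25D1.5. These had 35 of 22490 worm probes, since F25D1.5 had 2 probes and every other member had 1. One further gene, dhs-6, was not analysed here.

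Diazinon (DZN) is an organophosphorus insecticide, a class of compounds that block acetylcholinesterase. Whole worms of the wild type strain N2 (Bristol) grown with DZN were compared with control worms. The DZN worms hatched and grew on agar dishes with DZN dissolved in acetone, and the control worms on dishes with acetone alone. Both were fed E. coli OP50 and collected at 72 h and 16 °C, several dishes being pooled into each sample. The stage is not settled, being L3/L4 in the sample labels and L3 alone in the description of the treatment. The dose is not settled either, with 1 mg/ml in the sample names, 0.5 mg/ml in the treatment protocol and a concentration per litre in the methods of the study. Each of 6 two-colour oligonucleotide arrays carried 1 DZN and 1 control extract. DZN was in Cy5 on 3 arrays (DZN-Cy5 replicates 1 to 3) and in Cy3 on the other 3 (DZN-Cy3 replicates 1 to 3), and per the series design these were 6 biological replicates.

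The share of worm probes above background in a channel was 49.7% to 66.2% on the DZN-Cy5 arrays and 63.3% to 81.4% on the DZN-Cy3 arrays. Brightness thus went largely with the orientation of the dyes, and they cannot be told apart here. DZN-Cy3 replicate 3, at 63.3% in Cy3 and 69.8% in Cy5, was close to DZN-Cy5 replicate 3, at 62.4% and 64.2%. The scanner's PMT voltage setting for Cy3 was 55 on DZN-Cy3 replicates 1 and 2 and 50 on the other arrays. For Cy5 it was 48 or 50 in both orientations. A spot was above background when it exceeded the mean local background by 2 SD. Markers of the intestine were above background on all arrays in 9 of the 9 listed genes measured, and their summed log2 level was 17.0 to 17.2 in DZN channels and 16.9 to 17.25 in control channels. DZN-Cy5 replicate 3 stood apart in 8 germ line and oocyte markers, whose mean log2 ratio was 1.04 there and between -0.561 and 0.0571 on the other 5 arrays. The same array had the lowest mean of the 8 neuron markers, at -0.477. The 6 vitellogenin genes of the adult intestine had a mean log2 ratio of -1.62, with 0 of 6 genes above 0. Of these 6, 4 were above background on all arrays. Their array means ranged from -4.11 on DZN-Cy3 replicate 1 to 0.95 on DZN-Cy3 replicate 3, the only positive one. The 8 sperm markers had a mean of -0.42, with 0 of 8 above 0. Only 3 of the 8 were above background on all arrays, and spe-38 never was. The array means of the sperm markers ranged from -1.14 on DZN-Cy3 replicate 1 to 0.565 on DZN-Cy5 replicate 3, the only positive one. The summed log2 levels overlapped between treatments, at 15.6 to 16.26 in DZN and 15.63 to 16.17 in control channels for the germ line list, 11.4 to 15.73 in DZN and 12.94 to 15.82 in control channels for vitellogenins, and 12.85 to 15.53 in DZN and 13.36 to 15.3 in control channels for sperm. In whole worms, fewer cells of a type and less RNA per cell cannot be told apart. The part of these shifts in the results below was not tested.

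F25D1.5 on chromosome V had the 2 highest mean ratios of DZN over control among the member probes. One of its probes rose 2.37-fold, by 1.24 on the log2 scale, and the other, at 0.86, was not past the threshold of limma although it was positive on 6 of 6 arrays. The 2 probes are called brighter and dimmer by their mean log2 level, 11.06 and 11.02, which were close. The study reported F25D1.5 from these same samples, so the values are not independent evidence.

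The dimmer probe had log2 levels of 12.31, 10.24 and 11.69 in the DZN channels of DZN-Cy5 replicates 1 to 3, against 11.33, 9.30 and 10.35 in the control channels. On DZN-Cy3 replicates 1 to 3 it had 12.13, 12.12 and 11.36 in the DZN channels, against 10.59, 10.80 and 10.02 in the control channels. The DZN channel was thus the higher one on every array, yet the treatments overlapped across arrays, because DZN-Cy5 replicate 2 was dim in both channels. The means were 11.64 ± 0.77 in DZN channels and 10.40 ± 0.70 in control channels (SD, n = 6 each). The ratios on the 6 arrays were 0.97, 0.94, 1.35, 1.54, 1.32 and 1.33 in the same order. Their mean was 1.24 ± 0.10 (SE of limma, n = 6, 95% interval 1.00 to 1.48), with an adjusted p of 0.0231 in limma after the Benjamini-Hochberg method over all probes. The probe was number 2 of 22490 by p and number 26 by ratio. The call was lost (adjusted p 0.0528 to 0.312) in 5 of 6 fits without 1 array, kept only without DZN-Cy3 replicate 3, and in 5 of 11 other settings, while the ratio stayed between 1.13 and 1.34.

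The brighter probe had log2 levels of 11.63, 11.50 and 11.68 in the DZN channels of the DZN-Cy5 arrays, against 10.79, 11.34 and 10.70 in the control channels. On the DZN-Cy3 arrays it had 11.62, 11.83 and 10.70 in the DZN channels, against 10.49, 10.81 and 9.67 in the control channels. The control channel of DZN-Cy5 replicate 2 was the highest of the 6 control channels, and the gap between treatments was narrowest there. The ratios were 0.84, 0.17, 0.97, 1.13, 1.02 and 1.03, with a mean of 0.86 ± 0.13 (SE, n = 6, 95% interval 0.56 to 1.16) and an adjusted p of 0.105 in limma. In rank products, the method named by the study, which ranks the ratios within each array, both probes were called higher at a percentage of false positives (PFP) under 0.05, with values of 0.000256 for the dimmer and 0.00958 for the brighter probe. The dimmer probe exceeded the brighter probe on 6 of 6 arrays in ratio, by 0.38 on the log2 scale on average (SD 0.22). Without DZN-Cy5 replicate 2, the brighter probe had a ratio of 0.98 and an adjusted p of 0.124.

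**Figure D1:**
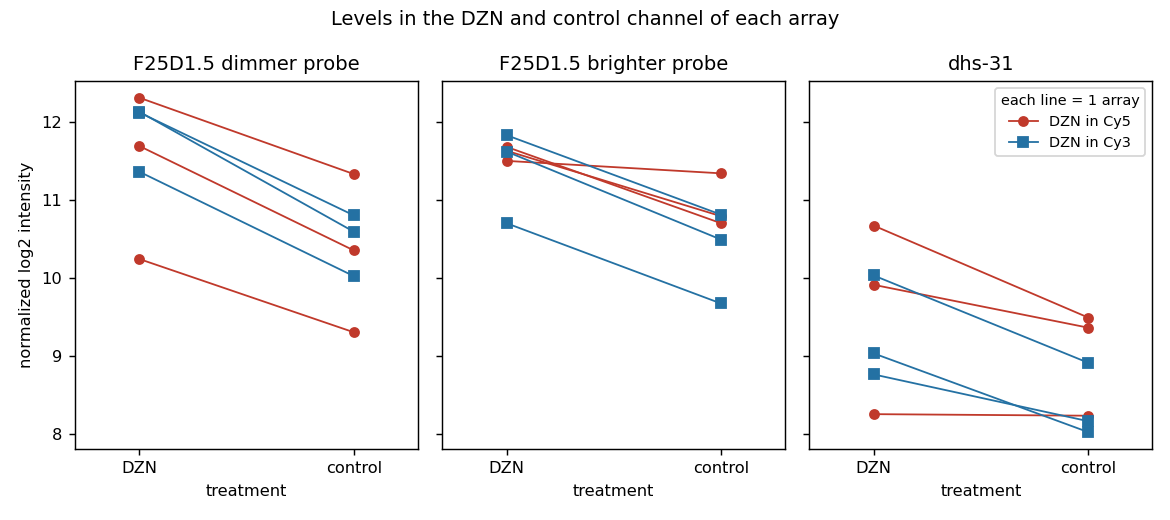
Normalized log2 intensity (vertical axis) in the DZN and control channel (horizontal axis) for the 2 probes of F25D1.5 and for dhs-31, with 1 line per array, red circles for DZN in Cy5 and blue squares for DZN in Cy3. Every line runs lower in the control channel, with nearly flat lines at ratios of 0.17 for the brighter F25D1.5 probe and 0.03 for dhs-31.

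**Figure D2:**
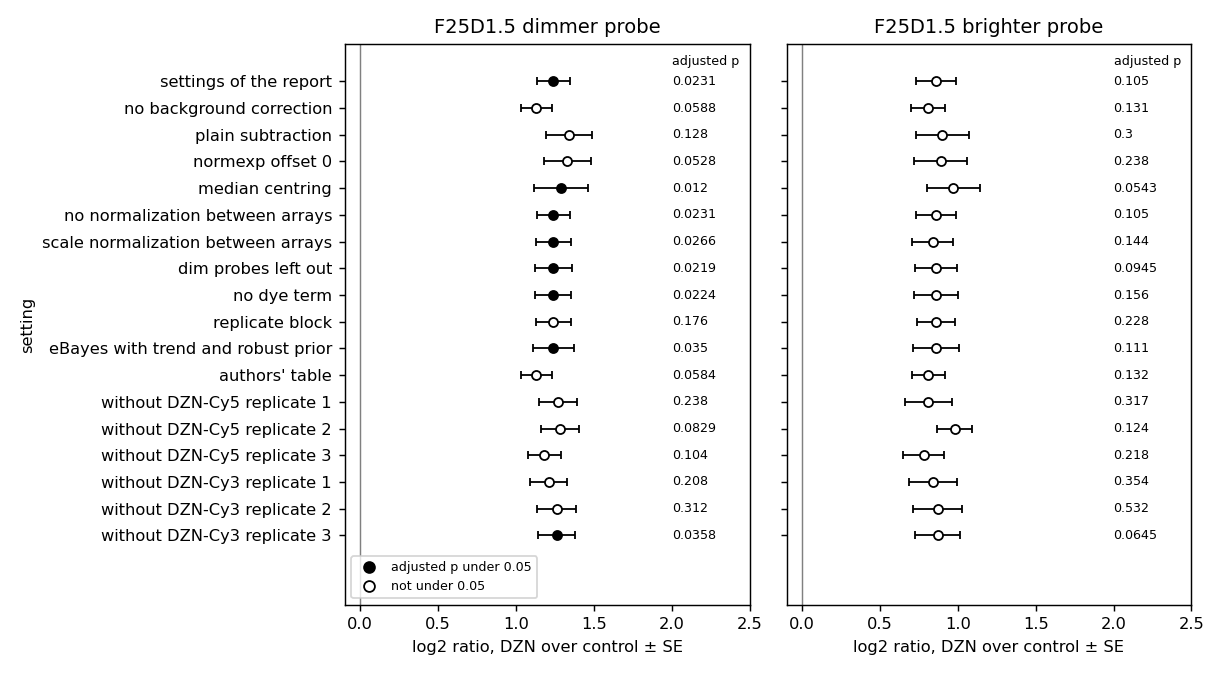
Log2 ratio of DZN over control (horizontal axis, bars ± SE of limma) of the F25D1.5 probes under each processing setting (vertical axis), with filled points where the adjusted p printed at the right was under 0.05. The dimmer probe stays between 1.13 and 1.34 and the brighter probe between 0.78 and 0.98, while filled points occur for the dimmer probe alone.

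Among the other members, dhs-31 on chromosome IV was the one with a single sign on all arrays. Its log2 levels on the DZN-Cy5 arrays were 8.25, 10.67 and 9.91 in DZN channels, against 8.23, 9.49 and 9.36 in control channels. On the DZN-Cy3 arrays they were 8.76, 9.03 and 10.03 in DZN channels, against 8.16, 8.02 and 8.91 in control channels. The treatments overlapped across arrays, and the ratio on DZN-Cy5 replicate 1 was close to 0. The ratios were 0.03, 1.18, 0.55, 0.60, 1.01 and 1.12, with a mean of 0.75 ± 0.16 (SE, n = 6) and an adjusted p of 0.215, and a PFP of 0.0601.

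Over all members, limma called 1 of 35 probes, the dimmer one of F25D1.5, against 0.0178% of all probes. The call was in the higher direction, against 0.0133% of all probes, and 0 members were called lower, against 0.00445%. Rank products called 2 of 35 higher, both of F25D1.5, against 0.502% of all probes, and 0 lower, against 0.538%. By the brightest probe of each gene, limma called 0 of 34 genes and rank products called 1 of 34, F25D1.5. As F25D1.5 was added singly and was reported by the study from these samples, its calls are not independent evidence. No dhs or stdh gene was called by either method. One sign on all 6 arrays was seen for 3 probes (8.57%), against 5.17% of all probes. Of these, 2 were probes of F25D1.5, and by the brightest probe there were 2 of 34 genes. All 3 probes were positive, against 2.06% of all probes positive on every array, and 0 members were negative on every array, against 3.11%. The DZN and control channels were free of overlap for 0 members, against 0.0978%. At an unadjusted p under 0.05 there were 8 member probes (22.9%), against 10.9% of all probes, 6 of them with a positive mean ratio (17.1% against 3.37%) and 2 with a negative one (5.71% against 7.49%). Both F25D1.5 probes were among these 8, and by the brightest probe there were 7 of 34 genes. The count of 8 probes depended on the setting, with 3 of 34 probes (8.82% against 9.0%) after plain background subtraction and 3 of 35 (8.57% against 6.95%) without DZN-Cy3 replicate 2.

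The family as a whole was centred at 0. The 29 dhs genes had a median log2 ratio of -0.01 (range -0.38 to 0.75) and the 4 stdh genes a median of 0.02, against 0.00 over all probes, and 17 of 35 member probes had a mean ratio above 0, against 50.8% of all probes. By array, the median over the 33 dhs and stdh genes was 0.01, 0.06 and -0.25 on the DZN-Cy5 arrays (replicates 1 to 3) and 0.10, 0.07 and 0.14 on the DZN-Cy3 arrays. The lowest of these fell on the array that stood apart in germ line markers, where 11 of 33 genes were above 0, against 18 to 21 on the other arrays.

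**Figure D3:**
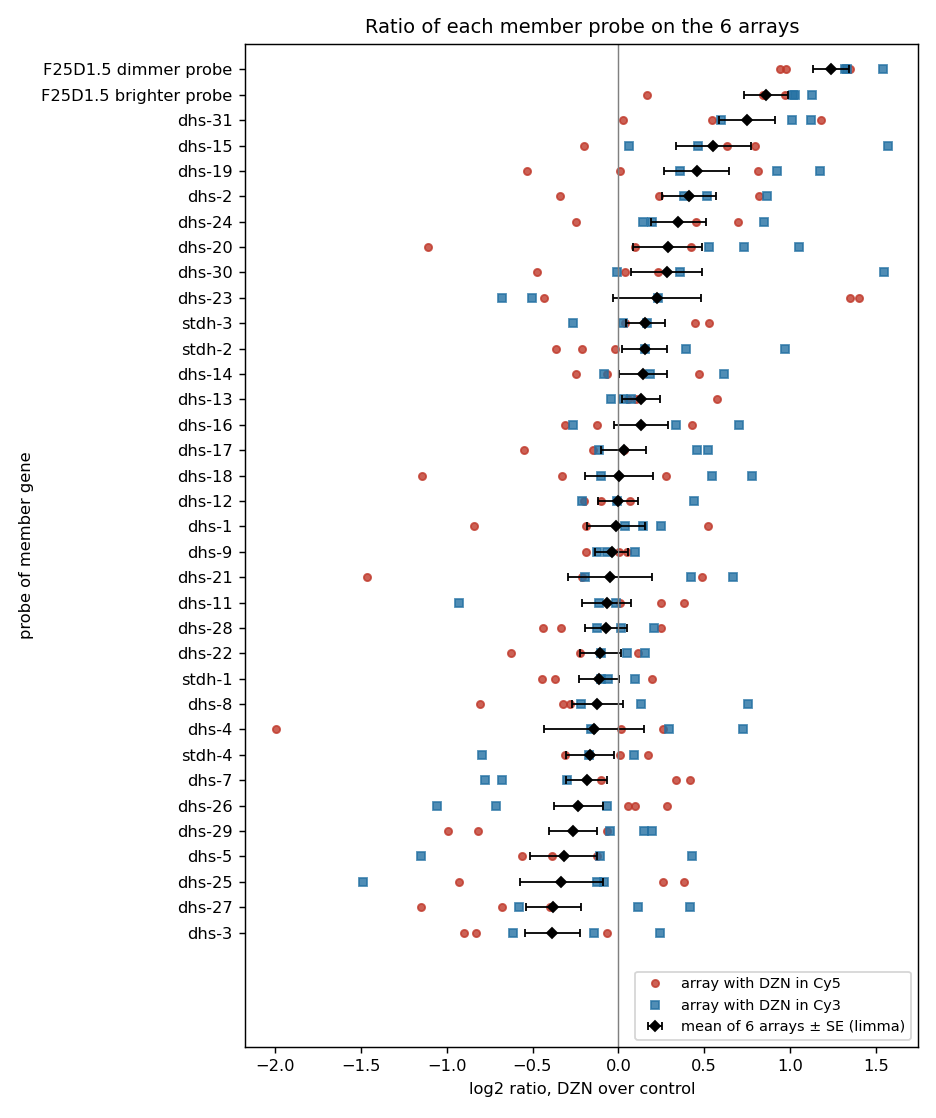
Log2 ratio of DZN over control (horizontal axis) of each of the 35 member probes (vertical axis, sorted by mean), as points for the 6 arrays (red circles, DZN in Cy5, and blue squares, DZN in Cy3) and as a black diamond with its SE in limma for the mean. The F25D1.5 probes and dhs-31 have all their points above 0, and the points of every other member lie on both sides of 0 or touch it.

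A further 5 dhs genes had an unadjusted p under 0.05 and did not pass the adjusted threshold. For dhs-2 the ratios were 0.23, 0.82 and -0.34 on the DZN-Cy5 arrays (replicates 1 to 3) and 0.52, 0.38 and 0.87 on the DZN-Cy3 arrays, with a mean of 0.41 ± 0.16 (adjusted p = 0.426 in limma). For dhs-19 they were 0.01, 0.81 and -0.53, then 0.36, 0.92 and 1.17, with a mean of 0.46 ± 0.19 (adjusted p = 0.448 in limma). In both genes DZN-Cy5 replicate 3 was the 1 array with a negative ratio, and without DZN-Cy5 replicate 2 the means were 0.27 for dhs-2 and 0.28 for dhs-19. For dhs-15 the ratios were 0.63, 0.79 and -0.20, then 0.06, 0.46 and 1.57, with a mean of 0.55 ± 0.22 (adjusted p = 0.433 in limma), and DZN-Cy5 replicate 3 was again the negative one. The highest of these ratios, on DZN-Cy3 replicate 3, came from channels that were both not above background, and without that array the mean was 0.34.

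Of these 5 genes, 2 had negative means. The gene dhs-3 encodes an abundant protein of intestinal lipid droplets. Its log2 levels on the DZN-Cy5 arrays were 13.51, 13.15 and 12.79 in DZN channels, against 13.58, 13.98 and 13.69 in control channels. On the DZN-Cy3 arrays they were 13.62, 12.78 and 13.33 in DZN channels, against 13.38, 12.92 and 13.95 in control channels. Only DZN-Cy3 replicate 1 had the higher level in the DZN channel, and the ranges overlapped. The mean log2 ratio was -0.38 ± 0.16 (adjusted p = 0.448 in limma). For dhs-27 the ratios were -0.68, -1.15 and -0.40 on the DZN-Cy5 arrays and 0.42, 0.12 and -0.58 on the DZN-Cy3 arrays, with a mean of -0.38 ± 0.16 (adjusted p = 0.456 in limma). The mean was -0.24 without DZN-Cy3 replicate 3.

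A further 3 members with a well known role were chosen after their values were seen. The gene dhs-28 encodes the peroxisomal enzyme that acts in the side-chain shortening of ascarosides, the pheromones of the worm. Its log2 levels on the DZN-Cy5 arrays were 14.26, 13.38 and 13.69 in DZN channels, against 14.01, 13.82 and 14.03 in control channels. On the DZN-Cy3 arrays they were 14.01, 14.07 and 13.99 in DZN channels, against 14.14, 14.06 and 13.78 in control channels. The treatments overlapped, with 3 arrays on each side of 0 and a mean ratio of -0.07 ± 0.12 (adjusted p = 0.865 in limma). For dhs-16, a hydroxysteroid dehydrogenase of the dafachronic acid pathway, the ratios were -0.31, -0.12 and 0.43 on the DZN-Cy5 arrays and 0.70, 0.34 and -0.26 on the DZN-Cy3 arrays. Their mean was 0.13 ± 0.16 (adjusted p = 0.793 in limma). The probe was above background in 6 DZN channels and 3 control channels, the other control channels being those of the DZN-Cy5 arrays. For dhs-21, a reductase of dicarbonyl compounds and L-xylulose, the ratios spread widely, from -1.47 on DZN-Cy5 replicate 3 to 0.67 on DZN-Cy3 replicate 3, with a mean of -0.05 ± 0.24 (adjusted p = 0.961 in limma).

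The 4 stdh genes, named for steroid dehydrogenases, all lie on chromosome V, and 0 of 4 were called. For stdh-1 the ratios were -0.37, 0.20 and -0.44 on the DZN-Cy5 arrays and 0.10, -0.06 and -0.10 on the DZN-Cy3 arrays, with a mean of -0.11 ± 0.12 (adjusted p = 0.752 in limma). Its level was above background in every channel, at 9.52 to 10.94 in DZN channels and 9.89 to 11.38 in control channels. The other 3 were dim. For stdh-3 the levels on the DZN-Cy5 arrays were 7.12, 9.21 and 9.24 in DZN channels, against 6.67, 9.17 and 8.71 in control channels. On the DZN-Cy3 arrays they were 6.24, 6.74 and 6.77 in DZN channels, against 6.21, 6.58 and 7.03 in control channels. The level of stdh-3 was thus high in both channels of DZN-Cy5 replicates 2 and 3, whatever the treatment, and its mean ratio was 0.16 ± 0.11 (adjusted p = 0.649 in limma). The mean ratios of stdh-2, at 0.15 ± 0.13, and of stdh-4, at -0.17 ± 0.14, had adjusted p-values of 0.696 and 0.694 in limma. The probe of stdh-2 was above background in 4 DZN and 4 control channels, as was that of stdh-3. The probe of stdh-4 was above background in 2 DZN and 2 control channels, and its mean ratio was 0.04 without background correction, so it has no settled sign.

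Whether a ratio differed between dye orientations was asked with the dye term of the same fit. No member passed it after adjustment, as no probe of the array did (0%), while 2 of 35 did with median centring in place of loess, among 1394 of all probes. At an unadjusted p under 0.05 there were 5 members (14.3%), against 11.7% of all probes. For dhs-7 the ratios were 0.41, 0.34 and -0.10 on the DZN-Cy5 arrays and -0.78, -0.68 and -0.30 on the DZN-Cy3 arrays, a difference of 0.80 ± 0.24 (dye term, adjusted p = 0.333 in limma). The differences of the DZN-Cy5 minus the DZN-Cy3 arrays were 0.76 ± 0.28 for dhs-26, -0.71 ± 0.26 for stdh-2, -0.72 ± 0.28 for dhs-29 and -0.96 ± 0.40 for dhs-20. The probe of dhs-26 was dim, above background in 3 DZN and 2 control channels. In dhs-11, dhs-26 and stdh-2 every array of one orientation had the opposite sign to every array of the other, a pattern of 8.57% of member probes and 6.6% of all probes. The difference was below 0 in 27 of 35 member probes, against 51.6% of all probes, but with median centring in place of loess in 10 of 35, against 44.7%, so that this lean has no settled direction.

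Arrays of different orientation also differed in the level of single members in both channels at once, and dhs-23 was the extreme case. Its log2 levels on DZN-Cy5 replicates 1 to 3 were 12.43, 12.04 and 11.76 in DZN channels, against 11.08, 12.47 and 10.36 in control channels. On DZN-Cy3 replicates 1 to 3 they were 7.93, 7.83 and 8.38 in DZN channels, against 7.71, 8.51 and 8.89 in control channels. All 6 channels of the DZN-Cy5 arrays lay above all 6 channels of the DZN-Cy3 arrays, in DZN and control worms alike. The mean level differed by 3.48 on the log2 scale between the array sets, and 7 of 22490 probes (0.0311%), dhs-23 included, differed at least as much in either direction. The dhs-23 ratios were 1.35, -0.43 and 1.4 on the DZN-Cy5 arrays and 0.23, -0.68 and -0.51 on the DZN-Cy3 arrays, with a mean of 0.23 ± 0.26 (adjusted p = 0.775 in limma). The orientation, the brightness and the cultures of the array sets cannot be told apart here. Over the members, 22 of 35 varied more over the arrays in mean level than in ratio, against 64.7% of all probes.

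**Figure D4:**
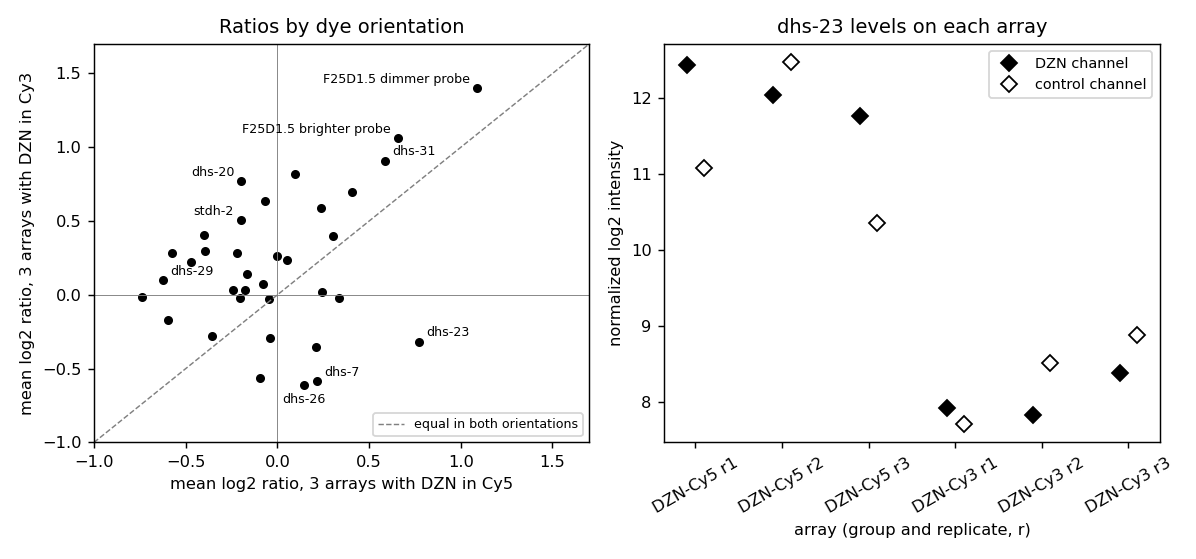
Left, mean log2 ratio of the 3 arrays with DZN in Cy5 (horizontal axis) and of the 3 arrays with DZN in Cy3 (vertical axis) for the 35 member probes, 1 point each, with the dashed line at equal values. Right, normalized log2 intensity (vertical axis) of dhs-23 in the DZN channel (filled) and control channel (open) of each array (horizontal axis), between 10.36 and 12.47 on the DZN-Cy5 arrays and between 7.71 and 8.89 on the DZN-Cy3 arrays.

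In all, 25 of 35 member probes were above background on every array in both treatments, against 42.1% of all probes, and 0 had a saturated channel. The probe of dhs-9 was above background on no array, so no fold is given for it. The members not yet named, dhs-1, dhs-4, dhs-5, dhs-8, dhs-12, dhs-13, dhs-14, dhs-17, dhs-18, dhs-22, dhs-24, dhs-25 and dhs-30, had mean log2 ratios between -0.33 for dhs-25 and 0.35 for dhs-24 and adjusted p-values of 0.485 or above in limma. Their ratios could still be far apart on single arrays, as in dhs-4, with 0.01, 0.26 and -2.0 on the DZN-Cy5 arrays and -0.16, 0.30 and 0.72 on the DZN-Cy3 arrays.

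Of the 34 member genes, 17 lie on chromosome V, 6 on X, 4 on I, 3 on II, 2 on III and 2 on IV in the gene order of RefSeq (assembly WBcel235). The genes dhsl-4, dhs-14, cror-2 and dhs-15 follow each other on chromosome V, and these neighbours were chosen after their values were seen. Their mean log2 ratios in that order were 0.69 ± 0.11 (adjusted p = 0.121 in limma), 0.14 ± 0.14, 0.82 ± 0.20 (adjusted p = 0.255 in limma) and 0.55 ± 0.22. For dhsl-4 the ratios were 0.07, 0.09 and -0.02 on the DZN-Cy5 arrays and 1.22, 1.07 and 1.69 on the DZN-Cy3 arrays, so they followed the dye orientation. For cror-2 they were 0.69, 0.20 and 0.93, then 1.58, 1.33 and 0.17, and rank products called it higher (PFP 0.0176), with 4 DZN and 3 control channels above background. The gene pair stdh-3 and stdh-1 lies on the same chromosome with 2 genes between stdh-3 and cyp-35C1, a cytochrome P450 of a subfamily inducible by foreign compounds. There cyp-35C1 rose by 2.34 ± 0.13 (adjusted p = 0.00486 in limma), the gene oac-3 had 0.46 ± 0.11 (adjusted p = 0.255 in limma) with 3 DZN channels and 1 control channel above background, C06B3.1 was above background on no array, and stdh-3 and stdh-1 were at 0.16 and -0.11. The oac-3 ratios were -0.13, 0.18 and 0.27 on the DZN-Cy5 arrays and 1.02, 0.54 and 0.86 on the DZN-Cy3 arrays, so they too followed the dye orientation.

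**Figure D5:**
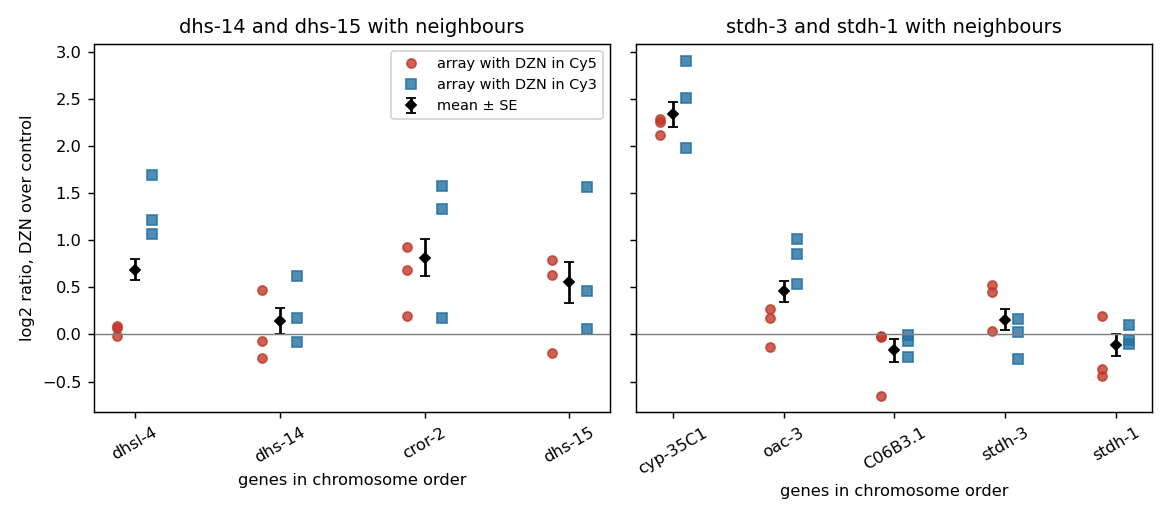
Log2 ratio of DZN over control (vertical axis) of neighbouring genes on chromosome V in chromosome order (horizontal axis), as points for the 6 arrays (red circles, DZN in Cy5, and blue squares, DZN in Cy3) and as mean ± SE. On the left dhs-14 lies near 0 between dhsl-4 and cror-2, and on the right cyp-35C1 lies at 1.98 or above on all 6 arrays, while stdh-3 and stdh-1 lie near 0.

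The pattern over the 6 arrays most like that of the brighter F25D1.5 probe was looked for among 17921 other genes, by the Euclidean distance between the 6 log2 ratios. The 5 nearest genes were hrg-7 (0.68), C18H9.6 (0.70), Y54G11A.7 (0.78), C29F7.2 (0.79) and ugt-8 (0.79), the last encoding a UDP-glucuronosyltransferase of phase II detoxification. Their mean log2 ratios ranged from 0.67 ± 0.16 for Y54G11A.7 to 0.99 ± 0.11 for C29F7.2, with adjusted p-values between 0.0689 and 0.255 in limma. The dimmer probe of F25D1.5 itself was at a distance of 1.06, and 13 genes were closer.

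Related genes were examined in 5 lists, in which limma called 0 genes in either direction. Of 14 measured genes with a short-chain dehydrogenase fold and other names, 0 had an unadjusted p under 0.05 with a positive mean (3.37% of all probes) and 2 with a negative one (7.49% of all probes), and their median log2 ratio was -0.03. The 3 with the smallest p were decr-1.3 at -0.45 ± 0.14 (adjusted p = 0.345 in limma), bre-1, a GDP-mannose dehydratase, at -0.50 ± 0.16 (adjusted p = 0.360 in limma), and decr-1.2 at -0.38 ± 0.17 (adjusted p = 0.483 in limma). On the DZN-Cy5 and DZN-Cy3 arrays the means were 0.11 and -1.01 for decr-1.3, -0.62 and -0.39 for bre-1, and -0.02 and -0.75 for decr-1.2. The probe of decr-1.3 was above background in 5 DZN and 5 control channels, and that of decr-1.2 in 4 and 5. The decr genes are named for dienoyl-CoA reductases of fatty acid oxidation.

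Of 8 genes of dafachronic acid and sterol handling, 1 had an unadjusted p under 0.05 with a positive mean (3.37% of all probes) and 1 with a negative one (7.49%), and the median was -0.03. These were the Niemann-Pick type C homologs ncr-1 at 0.40 ± 0.16 (adjusted p = 0.440 in limma) and ncr-2 at -0.55 ± 0.15 (adjusted p = 0.303 in limma). For ncr-2 the mean was -0.16 on the DZN-Cy5 arrays and -0.94 on the DZN-Cy3 arrays, with 4 DZN and 4 control channels above background. The third by p was emb-8, the NADPH-cytochrome P450 reductase, at 0.35 ± 0.19 (adjusted p = 0.538 in limma).

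The 10 peroxisomal genes listed beside dhs-28 had a median of -0.21, and 4 of them had an unadjusted p under 0.05, all 4 with negative means, against 7.49% of all probes. Rank products called 3 of them lower, against 0.538% of all probes, the acyl-CoA oxidases acox-1.2 (PFP 0.0116), acox-1.3 (PFP 0.00961) and acox-1.4 (PFP 0.0246). In limma their mean ratios were -1.06 ± 0.40, -1.09 ± 0.43 and -0.92 ± 0.28, with adjusted p-values of 0.414, 0.435 and 0.335. These genes are close relatives, and whether their probes share signal was not tested. Beside them, dhs-28 was at -0.07.

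Of 9 lipid droplet genes listed beside dhs-3, 1 had an unadjusted p under 0.05, with a negative mean (7.49% of all probes). This was the diacylglycerol acyltransferase dgat-2, at -0.72 ± 0.21 (adjusted p = 0.321 in limma). Its ratio was negative on each of 6 arrays, as were those of bre-1, ncr-2 and acox-1.4 in the lists above and of 3.11% of all probes. The next by p were hosl-1, a lipase, at 0.40 ± 0.18 and acs-22, an acyl-CoA synthetase, at 0.36 ± 0.17, and the median of the list was 0.18. Of 16 other oxidoreductases of alcohols and aldehydes, 3 had an unadjusted p under 0.05, all 3 with positive means, against 3.37% of all probes, and the median was 0.06. The aldehyde dehydrogenase alh-5 was at 0.87 ± 0.14 (adjusted p = 0.120 in limma). Its ratio was positive on each of 6 arrays, as were those of 2.06% of all probes. Rank products called it higher (PFP 0.011), as they did 0.502% of all probes. The others were alh-4 at 0.52 ± 0.17 (adjusted p = 0.373 in limma) and the alcohol dehydrogenase sodh-2 at 0.33 ± 0.13 (adjusted p = 0.419 in limma). For sodh-2 the mean was 0.08 on the DZN-Cy5 arrays and 0.58 on the DZN-Cy3 arrays, with 4 DZN and 4 control channels above background.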

How the data were processed

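Per the file headers, the deposited ScanArray Express files gave the foreground and local background intensity of each spot on a linear scale, not normalized, with the percent of its pixels that were saturated. A table of log2 ratios deposited by the authors was close to a loess fit of the foreground without background correction, turned to DZN over control (largest difference on any probe 0.00782 to 0.035 per array, on the log2 scale). The authors named limma, loess and Aquantile, and the genome build of the probe design was not given in the sources used. Spot means were corrected by normexp (offset 50), then normalized by loess and Aquantile in limma 3.58.1 (R 4.3.3). Ratios were fitted by lmFit and eBayes, each probe having a dye orientation term (residual degrees of freedom 4, prior 3.56), and p-values are two-sided, adjusted by the Benjamini-Hochberg method over 22490 probes at a threshold of 0.05. Values after ± are SE of limma over 6 arrays unless SD is named, and levels are normalized log2 intensities per channel. One-class rank products used a gamma approximation of p, since the Rank Product package was not used here, and the form of the test run by the study may differ.

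Probe names were matched to RefSeq symbols (21382 by name, 31 by the platform annotation, 1077 not matched, all 35 member probes by name). Where a gene had several probes, the brightest stands for it. Members, lists and the rule for named genes were chosen with earlier results of these data known. That rule named F25D1.5, members at an unadjusted p under 0.05 for DZN or the dye term, members called by rank products or with one sign on all arrays, all stdh genes, the 3 related genes of each list with the smallest p, and the 5 nearest patterns. The rule also asked for the protein most like that of F25D1.5, which was not analysed here, as protein and probe sequences were not used. Other members, and the chromosome neighbours, were named for their role or values outside the rule. Cell type marker lists covered intestine, hypodermis, muscle, neurons, germ line, sperm and vitellogenins, and the mean log2 ratios not given above were 0.03 for intestine, -0.01 for hypodermis, 0.02 for muscle, -0.07 for neurons and 0.03 for the germ line. No member was saturated, and depth on arrays is limited by their number. The scripts were tested on simulated data with changes larger than the mean ratio of any member. Recovery of changes as small as those of the members was not tested.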

Additional observations from a re-analysis of the deposited data

Results flagged for a closer look

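In 3 of 35 member probes a single array lay far from the other 5 by Dixon's criterion for 6 values, against 10.1% of all probes. The criterion's rate of about 1 in 20 groups holds for independent normal values, so the share over all probes is the comparison for the members. The brighter F25D1.5 probe had a log2 ratio of 0.17 on DZN-Cy5 replicate 2, where the nearest other array had 0.84 (gap 0.704 of the range). The ratio of dhs-13 was 0.57 on DZN-Cy5 replicate 3, with the nearest array at 0.10 (gap 0.768 of the range). The ratio of dhs-4 was -2.0 on DZN-Cy5 replicate 3, with the nearest array at -0.16 (gap 0.675 of the range). The array named for dhs-13 and dhs-4 was the one with the high germ line marker ratio.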

How the results depend on the processing

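The count of all probes called by limma was 4, and it was 2 without background correction, under plain subtraction and from the authors' table, 8 with scale normalization, 14 with dim probes left out, 16 with a trended robust prior, 30 with median centring (19 higher, 11 lower), 0 with the replicate block and 234 with rank products. Without 1 array it ran from 0 to 132, with 0 when DZN-Cy5 replicate 1 or when DZN-Cy3 replicate 2 was left out and 132 without DZN-Cy3 replicate 3. The count of members called, 1 as reported, was 0 without background correction, under plain subtraction, normexp offset 0, the replicate block or the authors' table, 2 with rank products, and 0 to 1 without 1 array. The dimmer F25D1.5 probe had 1.13 (adjusted p 0.0588) without background correction, 1.34 (0.128) with plain subtraction, 1.33 (0.0528) with offset 0, 1.13 (0.0584) with the authors' table, and 1.18 to 1.28 without 1 array. With the replicate block it kept 1.24 (adjusted p 0.176). Whether same-numbered arrays share more than a number is not settled. Their deviations correlated at 0.154, -0.0138 and -0.0834, and not every array correlated best with its own number. With 3 arrays per orientation, deviations from their mean are not independent of each other, so these correlations cannot decide it. The brighter probe stayed at 0.78 to 0.98 (adjusted p 0.0543 to 0.532) in every setting run. The dye term called 2 members with median centring, dhs-23 and dhs-7, and 0 otherwise. The sign of stdh-4 turned to 0.04 without background correction and 0.03 with the authors' table, it was -0.55 with plain subtraction, and with dim probes left out it had no value. Without 1 array, dhs-15 ran from 0.34 to 0.71, dhs-19 from 0.28 to 0.62, dhs-2 from 0.27 to 0.56 and dhs-27 from -0.49 to -0.24. The causes were not tested. Aquantile leaves ratios as they are, so leaving it out changed no count.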
